A study of Mus musculus with 8 samples.

Results

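The genes described are those of motile cilia and of intraflagellar transport, in lung RNA of mice with and without Wfdc2, which encodes a secreted protein with whey acidic protein domains. Members were chosen by symbol from the 25965 genes of the deposited values: Foxj1 and every gene whose symbol begins with Dnah, Dnaic, Dnali, Rsph, Tekt or Ift followed by a number. This gave 28 genes. They were Foxj1, 3 dynein intermediate or light chains, 7 radial spoke genes, 5 tektins, and 12 intraflagellar transport (IFT) genes, of which 2 belong to the IFT-A complex and 10 to IFT-B. No gene matched Dnah, because the dynein heavy chains are entered under the older symbol Dnahc. Those 16 entries were not members and are given beside the members.

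Lungs came from Wfdc2+/+ mice and from Wfdc2GFP/GFP mice at E18.5, shortly before birth, and at P1.5, shortly after it, with 2 libraries in each of the 4 groups and 8 in all. In Wfdc2GFP/GFP mice both alleles carry a GFP cassette that replaces a piece of exon 1 and the whole of exon 2 in every tissue. Embryonic stem cells of the TT2 line carried the targeting, and the selection marker was removed with CAG-Cre. The genetic background of the mice sequenced is not given in the sources used here. Each library is total RNA of lung, a mixture of all its cells, so a lower level can stand for fewer ciliated cells or for less RNA in each, which cannot be told apart.

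The deposited values are log2 RPKM, in which the reads of a gene are scaled by its length in kilobases and by the size of the library. Whole reads were recovered from them, and levels below are in RPM, the same reads scaled by the size of the library alone, with replicates 1 and 2 of a group in that order. The 8 libraries held 19457647 to 37209333 reads. Wfdc2 itself had 8038 to 32845 reads in the Wfdc2+/+ libraries and 0 to 12 in the Wfdc2GFP/GFP libraries. Markers of type II alveolar cells summed to 9252 to 68820 RPM and markers of airway ciliated cells outside the member list to 402 to 1370 RPM, so both sets of markers were present in every library. Tubb4b and Tppp3 led the ciliated sum, with means of 8516.5 and 5848 reads, and the next gene, Ccdc153, had 1724. Libraries differed in how strongly genes of long genomic span were represented. The median deviation of genes over 60 kb minus that of genes under 10 kb, on the log2 scale, was 0.53 and 0.38 for E18.5 Wfdc2+/+, 1.04 and -0.08 for E18.5 Wfdc2GFP/GFP, -0.57 and 0.09 for P1.5 Wfdc2+/+, and -0.73 and -0.71 for P1.5 Wfdc2GFP/GFP. Replicates thus differed most within E18.5 Wfdc2GFP/GFP and within P1.5 Wfdc2+/+, and 8 of the 27 members tested span over 60 kb. Replicate 1 of E18.5 Wfdc2GFP/GFP had the highest value of the 8 libraries. At P1.5 replicate 2 of Wfdc2+/+ was unlike the other libraries, while replicate 1 lay near those of Wfdc2GFP/GFP. Below, the 2 libraries that stand apart are replicate 1 of each of these groups, a label that span does not bear out for P1.5 Wfdc2+/+.

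Motile cilia are built on a ring of doublet microtubules. Dynein arms on the doublets slide them against each other, radial spokes relay control from the central pair to the arms, and tektins are filament proteins inside the doublet wall. IFT carries the parts along the axoneme, with IFT-B trains moving towards the tip on kinesin-2 and IFT-A needed for the way back on cytoplasmic dynein 2. In the airway, multiciliated cells turn these genes on under FOXJ1 and factors of the RFX family, and their beat clears mucus. IFT is also used by the single primary cilium of other cells, so its genes are not particular to multiciliated cells.

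Promoter windows of 300 bases (250 before and 50 after the start of the gene, RefSeq, GRCm38.p6) were given for 21 of the 28 members. The RFX half-site GTTGCC, read on both strands, was present in a window of 10 of these 21 (47.62%): Dnaic2, Rsph3b, Tekt1, Tekt2, Tekt4, Ift140, Ift172, Ift27, Ift88 and Ift57. Among all 27025 genes with a window the share was 14.14%. The forkhead core TGTTTAC was present in 1 of the 21 members, Tekt3 (4.762%), and in 4.052% of all genes. The windows shown are those of the 3 genes with a pair of RFX half-sites, 1 window each, and that of Ift88, which has a single match and is among the genes with the smallest p-values below. Tekt1 lies at chr11:72361833-72362132 on the minus strand, Tekt2 at chr4:126325639-126325938 on the minus strand, Ift57 at chr16:49699044-49699343 on the plus strand and Ift88 at chr14:57423821-57424120 on the plus strand. Each is written 5′ to 3′ on the strand of the gene, with matches to the half-site or its reverse complement GGCAAC in capitals.
Tekt1: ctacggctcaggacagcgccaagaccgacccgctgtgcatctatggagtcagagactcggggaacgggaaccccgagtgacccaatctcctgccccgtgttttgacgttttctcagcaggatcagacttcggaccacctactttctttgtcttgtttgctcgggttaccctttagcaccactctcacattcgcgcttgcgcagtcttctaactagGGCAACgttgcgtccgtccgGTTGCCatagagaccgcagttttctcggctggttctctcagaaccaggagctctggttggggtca
Tekt2: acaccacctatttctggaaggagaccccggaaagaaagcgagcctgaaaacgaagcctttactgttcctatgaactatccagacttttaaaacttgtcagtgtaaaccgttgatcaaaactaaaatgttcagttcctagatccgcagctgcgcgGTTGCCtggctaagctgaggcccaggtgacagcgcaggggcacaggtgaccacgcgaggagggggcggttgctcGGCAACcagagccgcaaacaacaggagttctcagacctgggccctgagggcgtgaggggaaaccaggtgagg
Ift57: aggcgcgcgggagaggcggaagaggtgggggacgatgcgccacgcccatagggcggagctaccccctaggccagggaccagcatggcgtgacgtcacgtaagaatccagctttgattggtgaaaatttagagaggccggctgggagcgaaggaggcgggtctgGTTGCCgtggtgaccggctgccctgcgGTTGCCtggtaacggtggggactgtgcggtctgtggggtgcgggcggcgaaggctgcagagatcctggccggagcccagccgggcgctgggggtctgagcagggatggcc
Ift88: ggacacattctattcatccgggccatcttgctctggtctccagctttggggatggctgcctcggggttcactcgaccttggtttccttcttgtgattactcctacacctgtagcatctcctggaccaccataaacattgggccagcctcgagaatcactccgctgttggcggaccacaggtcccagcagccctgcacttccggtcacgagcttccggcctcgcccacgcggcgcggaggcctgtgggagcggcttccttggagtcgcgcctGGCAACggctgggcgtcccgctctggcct
The matches began at bases 216 and 236 of the Tekt1 window, 155 and 229 of Tekt2, 164 and 191 of Ift57 and 272 of Ift88. A match of 6 letters is a description of the sequence and does not show that a factor was bound there.

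Levels between genes were compared per length, as RPM per kilobase of exon (GENCODE M21) averaged over the 8 libraries, for the 27 members with an exon length. Whether reads in introns were counted is not stated. If they were, this measure is raised for genes with much intron, such as Ift74, with 2656 bp of exon in a span of 78739 bp. Ift20, an IFT-B subunit that also sits at the Golgi, was highest at 55.0. Foxj1, which switches on the motile cilia programme, followed at 24.4 and the radial spoke head gene Rsph1 at 19.0. Ift74 (13.3), Rsph9 (12.4), Ift52 (11.7) and Tekt1 (11.5) came next. At the lower end were Rsph3a (1.70), Rsph3b (0.865) and Tekt3 (0.452). Rsph6a, a radial spoke gene known from sperm flagella, was the only member with a mean under 10 reads. It had 5 and 2 reads in E18.5 Wfdc2+/+, 0 and 2 in E18.5 Wfdc2GFP/GFP, 0 and 2 in P1.5 Wfdc2+/+ and 1 and 1 in P1.5 Wfdc2GFP/GFP. Its reads lie near the limit of detection of 3 reads, and it was not tested. The other 27 members were tested within a limma fit of 15783 genes.

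**Figure D1:**
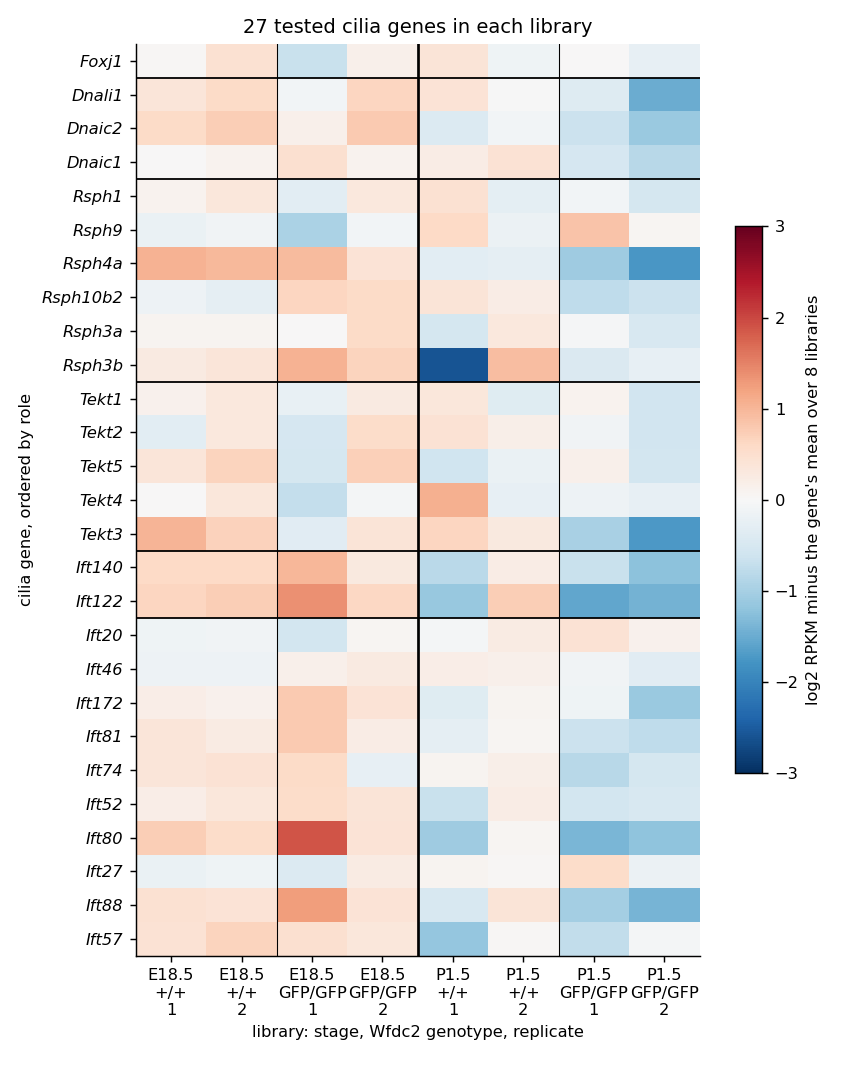
Level of the 27 tested cilia genes in the 8 libraries, as log2 RPKM minus the mean of the gene over the libraries (colour), with columns by stage, genotype and replicate and rows by role. Of the 27 genes, 13 were lowest in replicate 2 of P1.5 Wfdc2GFP/GFP and 11 were highest in replicate 1 of E18.5 Wfdc2GFP/GFP.

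At P1.5 the question was whether cilia genes differ in the lung without Wfdc2. Most members had lower values in Wfdc2GFP/GFP than in Wfdc2+/+ lungs, but no single gene passed the test. Of 27 members, 21 had a lower and 6 a higher mean, while 6278 of the 15783 genes tested had a higher mean. The median log2 difference of the members was -0.59, against -0.17 for all genes tested. The median was -0.39 with libraries centred on their median, -0.30 after quantile normalization and -0.27 with centring within bins of gene span. Under limma with Benjamini-Hochberg adjustment 0 of 27 members were called, where 0.00634% of all genes were, the smallest adjusted p among members was 0.40, and limma voom on the recovered reads also called 0. At an unadjusted p under 0.05 there were 5 members, all lower, and 1804 of the 15783 genes. The members were Dnali1, Rsph4a, Rsph10b2, Tekt3 and Ift88. Both Wfdc2GFP/GFP libraries lay below both Wfdc2+/+ libraries for 13 of 27 members, where 23.7% of all genes did so. Both lay above for 0 of 27, where 12.8% of all genes did. With 2 libraries against 2, an exact two-sided permutation test of a single gene cannot give a p below 0.333, so none is given. Markers of other cells were also unequal at P1.5. Markers of the oesophagus lining had lower means in Wfdc2GFP/GFP for 5 of 5 genes (median -1.78, sums of 67.8 and 135 against 44.7 and 42.2 RPM), and type II alveolar markers had higher means for 5 of 6 (median 0.49). In each list 0 were called and 1 had an unadjusted p under 0.05, and their part in the members' values was not tested.

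At E18.5 the members were split. Of 27, 13 had a lower and 14 a higher mean in Wfdc2GFP/GFP, while 9787 of the 15783 genes had a higher mean. The median log2 difference of the members was 0.03 against 0.12 for all genes. After rescaling, the median was below 0, at -0.18 with median centring, -0.17 after quantile normalization and -0.21 with centring within span bins. For all genes the medians under these settings were also below 0, at -0.093, -0.038 and -0.060. In limma 0 of 27 members were called (0.00634% of all genes) and by voom, and 0 had an unadjusted p under 0.05. Both Wfdc2GFP/GFP libraries lay below both Wfdc2+/+ libraries for 3 members (10.3% of all genes) and above for 5 (27.8% of all genes).

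**Figure D2:**
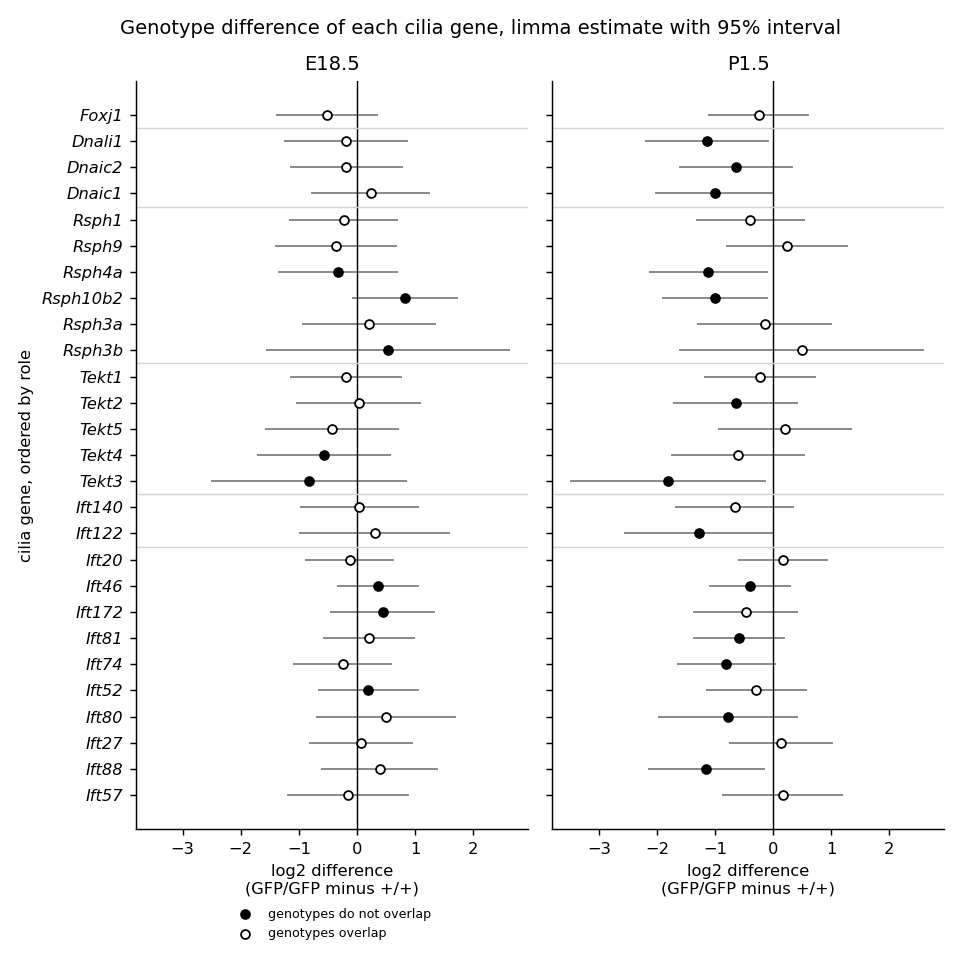
Log2 difference of each tested cilia gene (Wfdc2GFP/GFP minus Wfdc2+/+, 2 libraries each) at E18.5 and at P1.5, with the 95% interval of the limma fit; filled points mark genes whose genotypes do not overlap. At P1.5, 21 of the 27 points lie below 0, and at E18.5, 13 do.

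Foxj1 was close between genotypes at P1.5. Its level was 64.1 and 85.7 RPM in E18.5 Wfdc2+/+, 39.0 and 69.2 in E18.5 Wfdc2GFP/GFP, 81.0 and 57.4 in P1.5 Wfdc2+/+, and 62.7 and 52.7 in P1.5 Wfdc2GFP/GFP. The genotypes overlapped at both stages. The log2 difference at P1.5 was -0.25 ± 0.39 (SE, n = 2 libraries per group; limma adjusted p = 0.85), and without replicate 1 of P1.5 Wfdc2+/+ it was 0.0031. At E18.5 it was -0.51 ± 0.39 (limma adjusted p = 1.0), where replicate 1 of Wfdc2GFP/GFP had the lowest level of the 8.

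All 3 dynein chain members, which belong to the arms that drive the beat, had both P1.5 Wfdc2GFP/GFP libraries below both P1.5 Wfdc2+/+ libraries. Dnali1, an inner arm light chain, was at 19.1 and 22.2 RPM in E18.5 Wfdc2+/+, 14.0 and 23.1 in E18.5 Wfdc2GFP/GFP, 19.8 and 14.9 in P1.5 Wfdc2+/+ and 11.4 and 5.33 in P1.5 Wfdc2GFP/GFP. The last of these libraries held the lowest value of all. Its log2 difference at P1.5 was -1.14 ± 0.48 (SE, n = 2 per group; limma adjusted p = 0.43). Dnaic1, an outer arm intermediate chain, was at 5.98 and 6.42 RPM in E18.5 Wfdc2+/+, 8.36 and 6.39 in E18.5 Wfdc2GFP/GFP, 6.95 and 8.12 in P1.5 Wfdc2+/+ and 4.19 and 3.35 in P1.5 Wfdc2GFP/GFP. Dnaic2, the other intermediate chain, was at 16.2 and 18.3, 12.2 and 18.9, 8.29 and 10.3, and 6.99 and 5.02 RPM in the same order. Their log2 differences at P1.5 were -1.0 ± 0.46 for Dnaic1 and -0.64 ± 0.44 for Dnaic2. The median of the 3 chains at P1.5, -1.0, was -0.81, -0.58 and -0.65 under median centring, quantile normalization and span bins, and at E18.5 it was -0.18.

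The dynein heavy chains, the motors of the same arms, were summed over their entries. Dnahc12.1 and Dnahc12.2 are separate entries of the gene Dnah12, and both were counted. Outer arm chains summed to 80.0 and 70.0 RPM in E18.5 Wfdc2+/+, 119 and 53.5 in E18.5 Wfdc2GFP/GFP, 41.5 and 43.8 in P1.5 Wfdc2+/+ and 26.6 and 21.2 in P1.5 Wfdc2GFP/GFP. Inner arm chains summed to 108 and 101, 219 and 101, 85.9 and 91.6, and 46.6 and 32.2 RPM in that order. At P1.5 the genotypes thus did not overlap in either sum, while at E18.5 replicate 1 of Wfdc2GFP/GFP alone stood above the rest. Of 14 heavy chain entries tested, 14 had a lower mean in Wfdc2GFP/GFP at P1.5 (median log2 difference -0.93), 3 had an unadjusted p under 0.05 (Dnahc3, Dnahc6 and Dnahc10) and 0 were called. Of all 15783 genes, 6278 had a higher mean there, and 1313 were lower at an unadjusted p under 0.05. Heavy chains are long genes, and with centring within span bins their median was -0.45, with 12 of 14 lower.

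**Figure D3:**
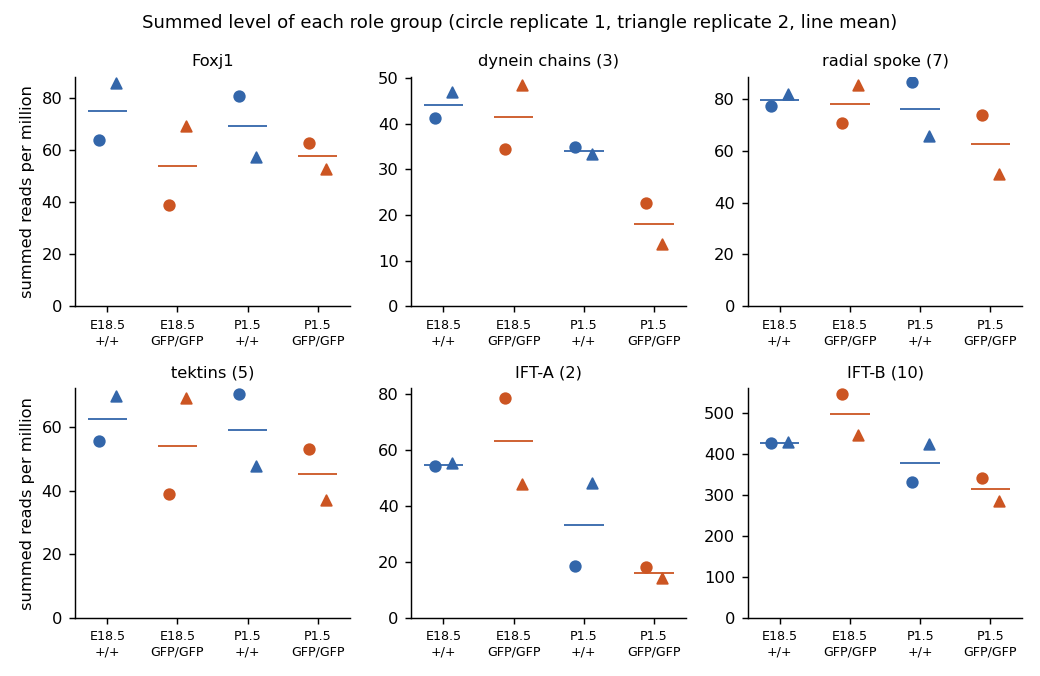
Summed level of each role group (RPM, summed over the number of genes in parentheses) in each library, with circles for replicate 1, triangles for replicate 2 and a line at the mean of the 2 libraries. For the dynein chains the P1.5 Wfdc2GFP/GFP libraries, at 22.5 and 13.7, lie below the 2 Wfdc2+/+ libraries, at 35.0 and 33.3, whereas the genotypes overlap for radial spoke genes and tektins at P1.5.

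Radial spoke genes were split. At P1.5, 4 of the 6 tested had lower means in Wfdc2GFP/GFP, with a median log2 difference of -0.27 that was 0.03 after quantile normalization. Rsph4a, a spoke head component of motile cilia, was at 16.7 and 15.8 RPM in E18.5 Wfdc2+/+, 15.6 and 10.7 in E18.5 Wfdc2GFP/GFP, 6.49 and 6.63 in P1.5 Wfdc2+/+ and 3.84 and 2.39 in P1.5 Wfdc2GFP/GFP. Both mutant libraries were below both controls at each stage, and the log2 difference at P1.5 was -1.11 ± 0.46 (limma adjusted p = 0.42). Rsph1, another spoke head gene, was at 27.4 and 32.2, 20.5 and 31.5, 35.0 and 20.6, and 23.9 and 17.5 RPM in the same order, with genotypes overlapping at both stages. Rsph9, which joins the spoke head as well, was at 16.4 and 17.4, 9.78 and 17.6, 28.5 and 16.5, and 33.8 and 19.4 RPM. It had a higher mean in P1.5 Wfdc2GFP/GFP, by 0.24 ± 0.47 (limma adjusted p = 0.88). Rsph9 overlaps Mrps18a on the other strand over 6876 bp, and whether reads were counted by strand is not stated.

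Rsph10b2 was the member with opposite placements at the 2 stages, and it was picked out after its values were seen. Its level was 8.71 and 8.05 RPM in E18.5 Wfdc2+/+, 15.3 and 14.5 in E18.5 Wfdc2GFP/GFP, 12.7 and 11.4 in P1.5 Wfdc2+/+ and 5.78 and 6.25 in P1.5 Wfdc2GFP/GFP. Wfdc2GFP/GFP libraries were above at E18.5 (log2 difference 0.83 ± 0.41, limma adjusted p = 1.0) and below at P1.5 (-1.0 ± 0.41, limma adjusted p = 0.42). Ift46 showed the same pair of placements with smaller differences. Rsph10b2 shares 4275 bp with Pms2 on the same strand, so its reads are uncertain. Rsph3a and Rsph3b are near-identical copies whose reads the counting may have split. Rsph3b ran from 0.368 RPM in replicate 1 of P1.5 Wfdc2+/+ to 4.54 in replicate 1 of E18.5 Wfdc2GFP/GFP, and Rsph3a from 3.45 to 7.39.

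Of the 5 tektins, 4 had lower means in Wfdc2GFP/GFP at P1.5, and their median log2 difference of -0.61 was 0.01 once both libraries that stand apart were left out. Tekt3 showed the largest difference among members at P1.5, from few reads. It was at 1.37 and 1.09 RPM in E18.5 Wfdc2+/+, 0.537 and 0.889 in E18.5 Wfdc2GFP/GFP, 1.06 and 0.822 in P1.5 Wfdc2+/+ and 0.345 and 0.205 in P1.5 Wfdc2GFP/GFP, where detection ends at 0.103 to 0.130 RPM. The mutant libraries were below the controls at both stages, with a log2 difference of -1.81 ± 0.76 at P1.5 (limma adjusted p = 0.42). Tekt1 was at 19.8 and 22.7 RPM in E18.5 Wfdc2+/+, 15.6 and 22.1 in E18.5 Wfdc2GFP/GFP, 23.0 and 14.3 in P1.5 Wfdc2+/+ and 19.6 and 12.2 in P1.5 Wfdc2GFP/GFP, overlapping throughout. Tekt2 was at 10.3 and 15.9, 9.06 and 18.8, 17.4 and 14.5, and 11.9 and 8.61 RPM, and its genotypes were apart at P1.5 (-0.65 ± 0.48). Tekt5 was at 13.6 and 16.8, 7.28 and 17.4, 6.95 and 9.15, and 11.7 and 7.25 RPM. Tekt4 ran from 6.40 to 22.2 RPM over the 8 libraries. Tektins and several spoke genes are also made in sperm. Of the spermatogenic markers, Prm2 had 31 and 17 reads and Ldhc 93 and 68 reads in the E18.5 Wfdc2+/+ libraries, against 0 and 0 to 6 reads in the other 6. Their part in the E18.5 values of the tektins was not tested.

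The IFT-A members, whose complex serves return from the tip, split the P1.5 Wfdc2+/+ replicates. This was not particular to IFT-A. Among IFT-B members in that group, Ift88 was at 14.2 and 25.9 RPM, Ift80 at 10.9 and 24.1 and Ift57 at 8.80 and 20.2, whereas Ift46 was at 65.4 and 63.4. Ift122 was at 22.6 and 24.1 RPM in E18.5 Wfdc2+/+, 37.6 and 22.1 in E18.5 Wfdc2GFP/GFP, 6.54 and 23.9 in P1.5 Wfdc2+/+ and 4.92 and 5.43 in P1.5 Wfdc2GFP/GFP. Ift140 was at 31.6 and 31.3, 41.1 and 25.6, 11.9 and 24.1, and 13.1 and 8.78 RPM. In P1.5 Wfdc2+/+, replicate 1 was near the mutant libraries and replicate 2 near the E18.5 ones for both genes. The P1.5 log2 difference of Ift122 was -1.27 ± 0.58 (limma adjusted p = 0.44) and that of Ift140 -0.66 ± 0.46 (limma adjusted p = 0.62). Without the 2 libraries that stand apart, they were -2.21 and -1.17, and 5 of 27 members were called at P1.5 (Ift122, Ift88, Ift80, Ift140 and Ift74), all lower, where the same fit called 22.7% of all genes lower. That share of members does not exceed the background. That fit keeps 1 Wfdc2+/+ library at P1.5, which is assumed to vary like the other groups. The library kept is replicate 2, which by gene span was unlike the other P1.5 libraries. Without replicate 1 of P1.5 Wfdc2+/+ alone, the P1.5 median over all genes was -0.53, and without replicate 2 alone it was 0.14. With single libraries left out, the P1.5 difference of Ift122 ran from -2.21 to -0.34. Ift140 overlaps Tmem204 on the other strand over 23480 bp.

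Among the 10 IFT-B members, 7 had lower means in Wfdc2GFP/GFP at P1.5 (median -0.43, and -0.23, -0.30 and -0.18 under the 3 rescalings). Ift88, a core subunit whose loss stops ciliogenesis, was at 27.3 and 26.3 RPM in E18.5 Wfdc2+/+, 47.4 and 26.2 in E18.5 Wfdc2GFP/GFP, 14.2 and 25.9 in P1.5 Wfdc2+/+ and 9.84 and 7.55 in P1.5 Wfdc2GFP/GFP. Its P1.5 difference of -1.15 ± 0.45 had the smallest p among the members (limma adjusted p = 0.40). Ift80, another IFT-B subunit, was at 38.3 and 33.5, 85.0 and 30.5, 10.9 and 24.1, and 8.94 and 9.98 RPM. Ift81 and Ift74, which bind each other and tubulin, were both apart by genotype at P1.5. Ift81 was at 51.4 and 47.6, 69.4 and 47.1, 33.1 and 41.4, and 25.7 and 23.6 RPM, a P1.5 difference of -0.59 ± 0.36.

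The IFT-B genes with the most reads, a ranking not scaled by length, gave a mixed picture. Ift20 was at 75.1 and 76.7 RPM in E18.5 Wfdc2+/+, 56.4 and 85.8 in E18.5 Wfdc2GFP/GFP, 79.4 and 97.6 in P1.5 Wfdc2+/+ and 111 and 89.6 in P1.5 Wfdc2GFP/GFP. Ift46 was at 51.2 and 51.9, 63.6 and 68.8, 65.4 and 63.4, and 53.0 and 45.4 RPM in that order. Ift172, the largest IFT-B protein, was at 54.3 and 51.6, 81.9 and 63.3, 36.7 and 50.3, and 43.6 and 22.0 RPM. Ift20, Ift27 and Ift57 had higher means in Wfdc2GFP/GFP at P1.5, by 0.18, 0.13 and 0.16 on the log2 scale, all with overlapping genotypes. Ift52 had a lower mean (log2 difference -0.29 ± 0.39) with overlap. Over the 8 libraries Ift74 ran from 18.8 to 49.9 RPM, Ift52 from 19.6 to 45.8, Ift27 from 19.0 to 36.6 and Ift57 from 8.80 to 31.2.

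Whether the genotype difference itself changed between stages was tested as an interaction. In limma 0 of 27 members were called, as were 0.0% of all genes, and voom called 0 members as well. At an unadjusted p under 0.05 there were 2, Rsph10b2 (difference of differences -1.83) and Ift88 (-1.55), and 1592 of the 15783 genes. The median over the members was -0.56, against -0.32 for all genes, and it was -0.15, -0.11 and -0.12 under median centring, quantile normalization and span bins. Without the 2 libraries that stand apart, 1 of 27 members, Ift122, was called (-2.13), where 5.72% of all genes were called lower.

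Stage was compared within each genotype. In Wfdc2+/+ lungs 0 of 27 members were called between E18.5 and P1.5, where 0.0887% of all genes were, and voom called 0. There were 2 with an unadjusted p under 0.05, Rsph4a (-1.31 ± 0.46) and Ift57 (-1.11 ± 0.47), and 1941 of the 15783 genes. The median log2 difference was -0.28 against -0.21 for all genes. Both P1.5 libraries lay below both E18.5 libraries for 11 members (30.0% of all genes) and above for 5 (22.8% of all genes). Without replicate 2 of P1.5 Wfdc2+/+, 4 of 27 members were called lower (Rsph3b, Ift57, Ift122 and Ift140), close to the 16.3% of all genes called lower there.

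In Wfdc2GFP/GFP lungs 6 of 27 members passed the test between stages, all of them lower at P1.5, where 14.5% of all genes were called and 10.9% were called lower. They were 5 IFT genes and Rsph4a. Ift122 (chr6:115853470-115926699) fell by 2.48 on the log2 scale, a level 5.58-fold lower (SE 0.58, limma adjusted p = 0.0332), and Ift80 (chr3:68892499-69004570) fell by 2.43 (limma adjusted p = 0.0307). Rsph4a (chr10:33905111-33916021) fell by 2.09 (limma adjusted p = 0.0305) and Ift88 (chr14:57424062-57517936) by 2.03 (limma adjusted p = 0.0308). Ift140 (chr17:25016091-25099495) fell by 1.60 and Ift81 (chr5:122550204-122614518) by 1.21, with limma adjusted p of 0.046 and 0.0475. Positions are those of the deposited mm10 values. The median over the members was -0.96, against -0.59 for all genes, and both P1.5 libraries lay below both E18.5 libraries for 18 members (52.4% of all genes) and above for 2 (18.7% of all genes). Foxj1 was not among the called genes (0.15 ± 0.39, limma adjusted p = 0.80). That Wfdc2GFP/GFP lungs gave 6 calls and Wfdc2+/+ lungs 0 does not show that the genotypes differed, since the interaction above gave 0.

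The 6 calls changed with the libraries and the scaling used. Of the 6 genes, 5 span over 60 kb, and they are 5 of the 8 tested members of that span, whereas Rsph4a is 1 of the 19 shorter ones. Across the 27 members Spearman's rho between span and the stage difference was -0.63 in Wfdc2GFP/GFP and -0.45 in Wfdc2+/+, a description over genes that share the same libraries. The 8 longer members had a median difference of -1.41 in Wfdc2GFP/GFP and the 19 others -0.43. With centring within bins of span 4 of the 6 were still called (Ift80, Ift122, Rsph4a and Ift88), where 5.91% of all genes were called lower, while the median over the members moved to -0.10. With median centring 3 were called (4.49% of all genes called lower) and after quantile normalization 2 (3.71%), and the tektin median then lay above 0, at 0.41 and 0.37. No member was called without replicate 1 of E18.5 Wfdc2GFP/GFP, or without either P1.5 Wfdc2GFP/GFP library, but those fits called at most 3 of the 15783 genes. With the replicate number as a term, 0 members were called, and 321 genes. Without both libraries that stand apart, 10 of 27 members were called lower, where 21.8% of all genes were.

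**Figure D4:**
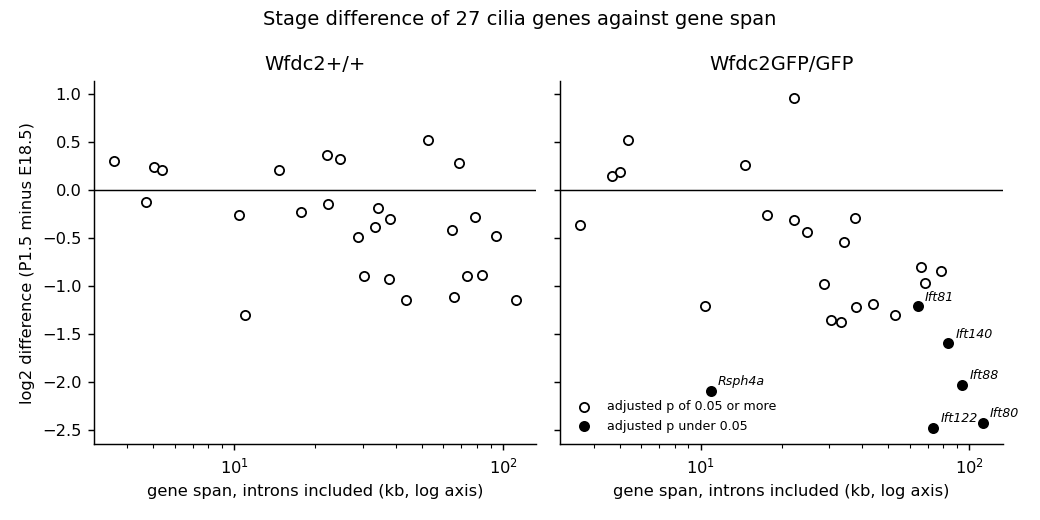
Log2 difference between P1.5 and E18.5 of the 27 tested cilia genes against the genomic span of the gene with introns (kb, log axis), in Wfdc2+/+ and in Wfdc2GFP/GFP lungs; filled points have a limma adjusted p under 0.05. In Wfdc2GFP/GFP the 6 filled points lie between -1.21 and -2.48, and 5 of them belong to genes over 60 kb.

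Other genes of the pathway, from lists fixed by function, were set beside the members. Of 64 tested, covering regulators of multiciliogenesis, dynein assembly and docking, the nexin link, the central pair, further IFT subunits and motors and the BBSome, 57 had lower means in Wfdc2GFP/GFP at P1.5 (median -0.77, and -0.47 with centring within span bins). There, 0 were called, and 9 had an unadjusted p under 0.05, all lower. Over all 15783 genes, 1313 were lower at that p, and 6278 had a higher mean. Among the 9 were Lrrc6 (-1.90), a dynein assembly factor, and Hydin (-1.40) of the central pair. At E18.5, 21 of the 64 had lower means (median 0.13, and -0.09 with median centring), and 0 were called. Between stages in Wfdc2+/+, 56 of 64 had lower means at P1.5 and 0 were called, while 6151 of the 15783 genes had a higher mean. In Wfdc2GFP/GFP, 24 of 64 were called, all lower, and of the 14 heavy chain entries 9 were called, all lower, where 10.9% of all genes were called lower. With centring within span bins these counts were 8 and 3, where 5.91% of all genes were called lower. The smallest p-values there belonged to Ccdc39 (-3.17), which sets the spacing of inner arms, and to the heavy chains Dnahc10 (-2.56) and Dnahc11 (-2.98).

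Markers of ciliated cells that are not members, such as Tppp3, were set beside them as well. Their sum was 638 and 732 RPM in E18.5 Wfdc2+/+, 402 and 743 in E18.5 Wfdc2GFP/GFP, 1370 and 764 in P1.5 Wfdc2+/+ and 992 and 804 in P1.5 Wfdc2GFP/GFP. Of the 15 markers summed, Tubb4b and Tppp3 had the most reads. At P1.5, 11 of 15 had lower means in Wfdc2GFP/GFP (median -0.45) and 0 were called. Between stages in Wfdc2GFP/GFP, 8 of 15 had higher means and 1 was called, Tppp3, which rose by 2.06. Of all 15783 genes, 570 were called higher there. Club cell markers, of the secretory cells beside ciliated cells in the airway, summed to 682 RPM in replicate 1 of E18.5 Wfdc2GFP/GFP and 2212 to 2879 in the other 3 E18.5 libraries, and to 17926 RPM in replicate 1 of P1.5 Wfdc2+/+ and 8470 to 9858 in the other 3 P1.5 libraries. Type I alveolar and leukocyte markers were also lowest in replicate 1 of E18.5 Wfdc2GFP/GFP, at 1102 and 142 RPM. Airway cartilage markers were highest there, at 34.2 RPM, and lowest in replicate 1 of P1.5 Wfdc2+/+, at 3.22. By gene span replicate 1 of E18.5 Wfdc2GFP/GFP stood apart too, whereas at P1.5 it was replicate 2 of Wfdc2+/+ that was unlike the other libraries. How much of each member's value goes with these differences in makeup was not tested.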

How the data were processed

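The lung RNA was made into directional libraries and sequenced on either of 2 Illumina instruments, and which library ran on which is not given in the sources used here. The authors trimmed reads with Trim Galore 0.4.0 and NGS QC Toolkit 2.3.1, mapped them to mm10 with TopHat 2.1.1 and counted them in SeqMonk 1.44.0, and deposited log2 RPKM values for 25965 genes. Tested on the values, gene length there counts introns, and genes with no read were entered at 0.9 read. Between 99.86% and 99.97% of the values with reads came out within 0.02 of a whole read. A limit of 3 reads, taken as the detection floor, equals 0.0806 to 0.154 RPM, and it covers counting error only.

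Genes with a mean of at least 10 reads were fitted on the log2 RPKM scale (limma 3.58.1, R 4.3.3). All 8 libraries entered, each of the 4 groups had its own mean, which left 4 residual degrees of freedom, and the prior spread followed a trend over log2 RPM. P-values are two-sided, adjusted by the Benjamini-Hochberg method over 15783 genes, with a threshold of 0.05. They measure the spread between 2 libraries a group. A fitted difference is GFP/GFP minus +/+, or P1.5 minus E18.5. The fit was tested on simulated data with independent libraries and the same dispersion for every gene. That test does not cover the differences by gene span or replicate number seen in these libraries. Alternatives are given in the closing section. Values in every library are given for Foxj1, for up to 3 members of each role group with the most reads, for called members, and for members with genotypes apart and a log2 difference of at least 1, and up to 3 further pathway genes per contrast are named by p. Lists of cell type markers covered ciliated, club, basal, cartilage, type I, type II, neuroendocrine, spermatogenic, leukocyte and oesophagus lining cells. The members and lists were chosen with earlier results of these data known. Sums over basal, neuroendocrine and oesophagus markers ran from 20.3 to 82.1, 8.84 to 20.2 and 10.3 to 135 RPM over the libraries. Exon lengths came from GENCODE M21 and promoter windows from RefSeq. Python 3.11.15 with pandas 2.3.3 made the summaries.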

Additional observations from a re-analysis of the deposited data

How the results depend on the processing

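Under every alternative other than leaving out both libraries that stand apart, members called at P1.5, at E18.5 and in the interaction stayed at 0. Centring within 20 bins of gene span and leaving out both of these libraries were added after seeing the data. Leaving them out gave 5 calls among the 27 members at P1.5 and 1 in the interaction, where 22.7% and 5.72% of all genes were called lower. For stage in Wfdc2GFP/GFP, with 6 calls as reported, there were 3 with a minimum mean of 0.05 RPKM, 3 without a filter, 1 with a pseudocount of 0.1 RPKM, 3 with median centring, 2 after quantile normalization, 1 with a prior without trend, 11 at an adjusted p under 0.1 and 10 without both libraries that stand apart. Leaving out single libraries gave 0 to 7 calls there and 0 to 4 for stage in Wfdc2+/+, and left 1 library in a group, which is assumed to vary like the others. Over all genes, 1717 of 15783 were called lower by stage in Wfdc2GFP/GFP as reported. There were 678 of 15627 with the minimum mean, 497 of 25965 without a filter and 71 with the pseudocount. Median centring gave 709, quantile normalization 586 and the prior without trend 562. At an adjusted p under 0.1, 5029 genes were called in either direction. The smaller member counts under these settings thus came with fewer calls over all genes. The highest member count with a single library left out came without replicate 2 of E18.5 Wfdc2GFP/GFP. That fit also called more of all genes lower than the fit as reported, so the higher member count came with a higher background. The median over the members for stage in Wfdc2GFP/GFP was -0.45 with a pseudocount of 0.1 RPKM, -0.27 with median centring, -0.14 after quantile normalization and -0.10 within span bins. The interaction median was -0.15, -0.11 and -0.12 under median centring, quantile normalization and span bins. Single libraries left out gave medians of -0.75 to -0.37 at P1.5, -0.14 to 0.057 at E18.5, -0.32 to -0.23 and -1.01 to -0.80 for stage in Wfdc2+/+ and Wfdc2GFP/GFP, and -0.74 to -0.41 for the interaction. With single libraries left out, Foxj1 ranged from -0.49 to 0.0031 at P1.5, from -0.15 to 0.68 in the interaction, from -0.27 to 0.56 by stage in Wfdc2GFP/GFP and from -0.37 to 0.13 by stage in Wfdc2+/+. It changed sign without replicate 1 of P1.5 Wfdc2+/+ (0.0031 at P1.5, and the same without both libraries that stand apart). Its interaction was -0.15 without replicate 1 of E18.5 Wfdc2GFP/GFP. Its stage difference in Wfdc2GFP/GFP was -0.14 after quantile normalization and -0.27 without replicate 1 of E18.5 Wfdc2GFP/GFP or without both libraries, and in Wfdc2+/+ it was 0.16 with median centring, 0.088 without replicate 2 of E18.5 and 0.13 without replicate 2 of P1.5. Summed as RPKM in place of reads, log2 ratios moved to -0.29 for radial spoke genes by stage in Wfdc2+/+. For IFT-B they moved to 0.039 and 0.046 by genotype at P1.5 and E18.5, and 0.10 and 0.093 by stage in Wfdc2+/+ and Wfdc2GFP/GFP. For all members they moved to -0.15 by genotype at E18.5, and 0.0074 and -0.036 by stage in Wfdc2+/+ and Wfdc2GFP/GFP. Short genes such as Ift20 weigh more in RPKM. The cause of the other changes was not tested.

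The authors describe the Wfdc2+/+ samples as littermate controls, but the replicate numbers are not stated to mark litters. The main fit had no term for litter. Same-numbered libraries deviated together within a stage (r = 0.257 at E18.5 and 0.182 at P1.5, across 15783 genes) and not across stages (-0.016 and 0.0042). Xist, an RNA of female cells, had 4121 to 90980 reads in replicate 1 and 1 to 13 in replicate 2 of every group. The labels do not give sex, but by Xist each group pairs a female with a male library. The spread within a group thus includes sex, and a replicate block takes out sex together with anything else that goes with the number. With a replicate block the 6 calls by stage in Wfdc2GFP/GFP became 0.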

Other observations

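Set against Foxj1 within each library, 7 of the 27 other members had fewer reads per 100 Foxj1 reads in both P1.5 Wfdc2GFP/GFP libraries than in both P1.5 Wfdc2+/+ libraries, and 1 had more. Of 15782 genes, 10.2% had fewer and 15.3% more. At E18.5, 0 members had fewer and 13 more, and of all genes 1.39% and 46.4%, with Foxj1 itself lowest in replicate 1 of Wfdc2GFP/GFP. The member counts include Rsph6a. Dnali1 had 24.4 and 25.9 reads per 100 Foxj1 reads in P1.5 Wfdc2+/+ and 18.1 and 10.1 in P1.5 Wfdc2GFP/GFP. Dnaic1 had 8.59 and 14.2 against 6.68 and 6.36, Rsph4a 8.02 and 11.6 against 6.13 and 4.54, and Tekt2 21.4 and 25.3 against 19.0 and 16.3. Tekt1 overlapped, at 28.4 and 24.9 against 31.3 and 23.2, as did Rsph1, at 43.3 and 35.8 against 38.2 and 33.1. These ratios were computed after the values were seen and carry no test.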
